A study of Mus musculus with 5 samples.

Results

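The Krüppel-like factors (KLFs) *Klf2*, *Klf3*, *Klf4*, *Klf5*, *Klf6*, *Klf7*, *Klf9*, *Klf10*, *Klf13* and *Klf15* were followed through 5 Tag-seq libraries of the mouse heart. They were chosen by gene name, and are 10 of the 17 *Klf* genes looked up and 10 of the 13486 genes with a listed tag in any library. All tissue came from embryonic day 10.5 (E10.5, Theiler Stage 17), when cushions of mesenchyme form the first valves. The 4 wild-type libraries, on the C57BL/6 strain, were made from the atrio-ventricular canal (AVC), the outflow tract (OFT), the atria and the ventricles. The AVC and the OFT are the regions that form valves, and the atria and ventricles are the chambers. The fifth library was made from the AVC of *Twist1* Knockout embryos on the ICR strain, so that genotype and strain cannot be told apart. *Twist1* encodes a basic helix-loop-helix transcription factor of the cushion mesenchyme. Each library was made from tissue pooled over at least 3 litters and dissected by hand, and each group has 1 library. Each test therefore compares libraries, and the spread between embryos is unknown.

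KLFs are transcription factors whose zinc fingers, at the end of the protein, bind GC-rich and CACCC sequences. The family is commonly divided by the partners its members recruit. *Klf2*, *Klf4*, *Klf5*, *Klf6* and *Klf7* belong to a group that mostly activates transcription, *Klf3* to a group of repressors that bind CtBP, and *Klf9*, *Klf10* and *Klf13* to a group of repressors that bind Sin3. *Klf15* is usually placed outside these groups. In the heart *Klf2* and *Klf4* are best known from the endothelium and endocardium, where they respond to blood flow through the kinases MEKK3 and ERK5, and *Klf2* is required for normal valve formation.

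In Tag-seq the cDNA is held at its poly(A) end and cut by NlaIII at CATG, and the bases next to a cut are sequenced as a tag. A complete digestion would give 1 tag per transcript, from the CATG nearest the 3' end (the last site), and a cut left undone there gives a tag from an inner site. The tags below are a selection of the members' tags that carried many of their counts or large differences between libraries. They are shown so that values can be traced to their place in the transcript. Capitals mark the NlaIII site, and sites are numbered from the 5' end of the transcript.

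Klf2 site 8 of 8: CATGgtgttttaggattgagc
Klf2 site 7 of 8: CATGcgcgactgtggcaggtt
Klf4 site 9 of 9: CATGttctaacagcctaaatg
Klf4 site 8 of 9: CATGcccggacttacaaaatg
Klf4 site 7 of 9: CATGgtcaagttcccagcaag
Klf6 site 21 of 21: CATGtagattcttccagcttt
Klf6 site 19 of 21: CATGagactcttttaagagac
Klf6 site 14 of 21: CATGcaaaatgatcttgtgca
Klf7 site 36 of 36: CATGactttcctttttactct
Klf7 site 5 of 36: CATGggaaggatgcgagtggc
Klf3 site 26 of 26: CATGtcaaactgtgaacataa
Klf3 site 9 of 26: CATGtattcctcaaaagaatg
Klf9 site 23 of 23: CATGgaaaatctactagtttt
Klf10 site 10 of 10: CATGcaaacttgaacccttga
Klf13 site 32 of 32: CATGtttagtgacgtttacat
Klf15 site 8 of 8: CATGtgcttaaatgcaagaca

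On GRCm38 the *Klf2* tags lie on the plus strand at chr8:72321479-72321499 and chr8:72320941-72320961, both in the 3' UTR in exon 3. The *Klf4* tags lie on the minus strand in exon 5, in the 3' UTR, at chr4:55527570-55527590, chr4:55527793-55527813 and chr4:55527988-55528008. Those of *Klf6* are in exon 4, in the 3' UTR, at chr13:5869619-5869639, chr13:5868861-5868881 and chr13:5868256-5868276 on the plus strand. The last *Klf7* tag is in the 3' UTR in exon 4 at chr1:64029956-64029976 and the other *Klf7* tag in the coding sequence in exon 3 at chr1:64042396-64042416, both on the minus strand. The *Klf3* tags are in the 3' UTR in exon 6 at chr5:64832797-64832817 and chr5:64829507-64829527 on the plus strand. The remaining tags are in the 3' UTR, at chr19:23167694-23167714 for *Klf9*, chr15:38294519-38294539 for *Klf10*, chr7:63886377-63886397 for *Klf13* and chr6:90474797-90474817 for *Klf15*. In all, 48 tag types (distinct tag sequences) of the members were listed in at least 1 library. Of these 41 lie in a 3' UTR, 6 in coding sequence and 1 in a 5' UTR.

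The libraries hold between 4223810 (ventricles) and 12977237 (null) tags, of which 70.7% to 74.5% matched 1 gene in the sense direction. A tag type is listed only above 5 tags, so the smallest listed level ranges from 0.462 tags per 1000000 listed tags (TPM) for the null to 1.42 TPM for the ventricles. The targeted gene, *Twist1*, had a level of 4.55 TPM in the null library against 918 TPM in its wild-type counterpart. The OFT held 299 TPM of it, the atria 63.4 and the ventricles 55.9. Cushion mesenchyme markers, 9 genes without *Twist1*, summed to 1590 and 1430 TPM in the AVC and OFT, 168 and 197 TPM in the atria and ventricles and 741 TPM in the null, with *Prrx1* at 0 in both chambers and *Snai2* at 0 in the atria. Endothelial and endocardial markers, 10 genes, summed to between 321 and 594 TPM, with *Cldn5* at 0 in the 4 wild-type libraries and *Emcn* at 0 in the AVC. The 11 cardiomyocyte markers summed to 9551 TPM in the atria and to between 22653 and 27325 TPM elsewhere, and the 5 epicardial markers to between 78.8 TPM (OFT) and 279.9 TPM (atria, with *Wt1* at 0). Erythroid markers, 8 genes without *Klf1*, summed to 215392 TPM for the atria and 46728 for the ventricles, against 2427 for the AVC, 3083 for the OFT (with *Gata1* at 0) and 27364 for the null.

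Summed over the 10 members, the AVC held 212 TPM, the OFT 264 TPM and the *Twist1* null AVC 209 TPM, but the atria 46.7 TPM and the ventricles 55.2 TPM. All 10 members were listed in the AVC and the OFT, 9 in the null, 7 in the atria and 6 in the ventricles. *Klf4* and *Klf5* were not listed in either chamber. The bar charts of the levels show these patterns gene by gene. In tissue pools such as these, fewer cells of a type and less RNA per cell cannot be told apart.

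**Figure D1:**
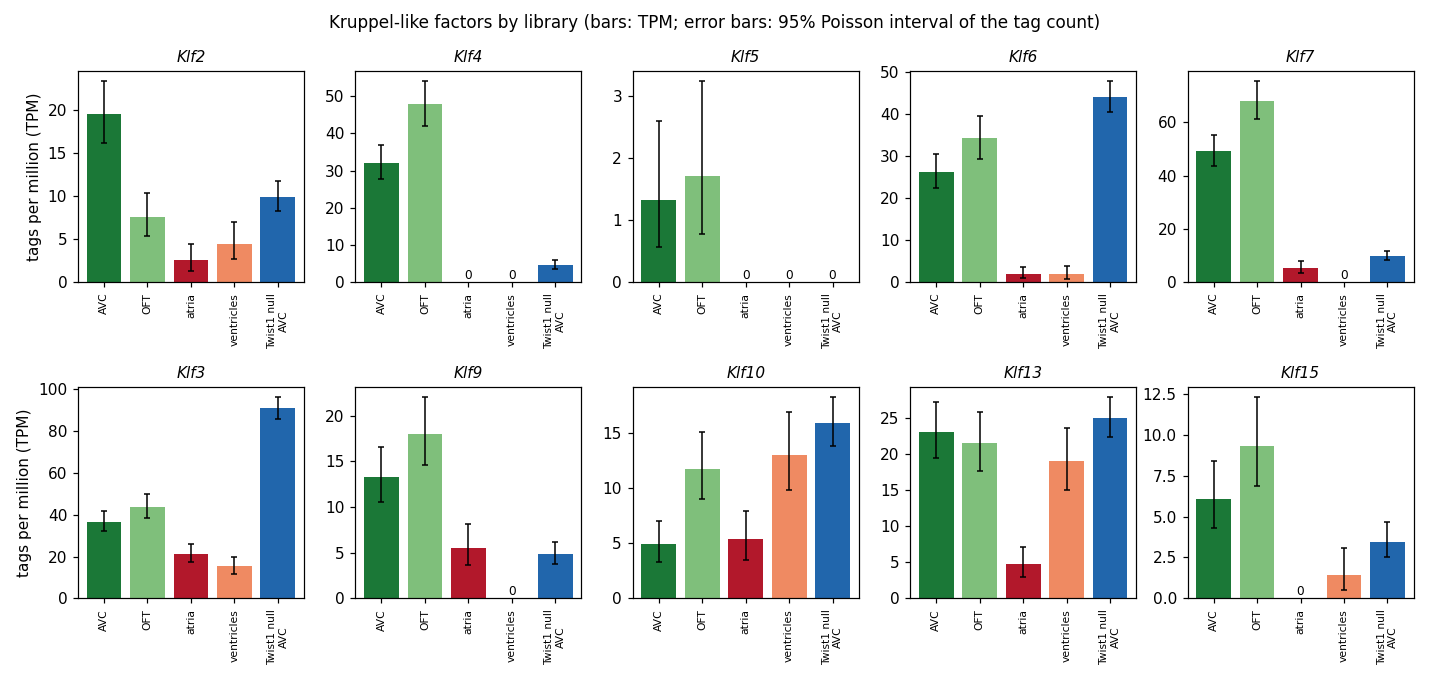
Level of each of the 10 Krüppel-like factors (TPM, vertical axis, a scale of its own for each gene) in the AVC, OFT, atria, ventricles and Twist1 null AVC libraries (horizontal axis). Bars are 1 library each and error bars are the 95% Poisson interval of the tag count, which covers counting error only; a 0 marks a gene with no listed tag, as for Klf4 and Klf5 in both chambers.

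The first question was which members were higher in the valve-forming regions than in the chambers. By the exact test of edgeR at a dispersion of 0.12, 7 of the 10 members were higher in the AVC than in the summed atria and ventricles at an unadjusted p under 0.05 and none was lower. Over all 12503 genes tested, 43.4% were called higher and 8.12% lower. The 7 members were also called after adjustment over all genes, where 35.6% of genes were called higher. The median log2 ratio was 2.34 over the members and 0.93 over all genes. In the OFT 6 of the 10 members were higher and none lower, where 40.6% of 12451 genes were called higher and 8.88% lower, with a median log2 ratio of 1.94 over the members and 0.82 over all genes. The 6 were called after adjustment too, where 34.1% of genes were called higher. The 2 comparisons share their control libraries. Trimmed mean of M values (TMM) normalization lowers the log2 ratios of all genes by 0.95 for the AVC and by 0.85 for the OFT. With TMM the AVC had 5 members called higher and 1 called lower (25.6% of genes higher and 17.5% lower), and the OFT had 6 called higher (26.2% of genes higher and 17.7% lower). The share of calls that are higher, over all genes, went from 84.2% to 59.4% for the AVC and from 82.1% to 59.7% for the OFT.

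Among the activators *Klf4*, which acts in endothelium and epithelia and is one of the reprogramming factors, had 195 tags in the AVC library, 252 in that of the OFT and none in the atria or ventricles. The AVC level was thus 32.1 TPM (95% interval 27.7 to 36.9) and the OFT level 47.8 TPM (42.1 to 54.1). Counting 5 tags for each missing tag type in each chamber library, the AVC exceeded the chambers by at least 9.51-fold and the OFT exceeded them by at least 14.2-fold. The exact test on the listed counts, without these 5 tags, gave p = 1.91e-11 for the AVC (adjusted p = 3.85e-09) and 1.40e-12 for the OFT (adjusted p = 4.84e-10). With the 5 tags counted *Klf4* was called in both regions too. Each of its 3 wild-type tag types, at sites 7, 8 and 9, was listed in the AVC and the OFT and absent from the chambers, so the difference does not rest on 1 site. The site 7 tag had 107 and 125 tags, the site 8 tag 42 and 61, and the site 9 tag 46 and 66.

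*Klf7*, known mainly from the developing nervous system, had an AVC level of 49.2 TPM (43.8 to 55.1), an OFT level of 68.2 TPM (61.3 to 75.6) and an atrial level of 5.36 TPM (3.47 to 7.91), and was not listed in the ventricles. The AVC was 17.5-fold above the chambers (exact p = 1.30e-06, adjusted p = 2.36e-05) and the OFT 24.2-fold above them (exact p = 1.44e-07, adjusted p = 3.94e-06). Its 25 chamber tags all came from the last site, whereas the AVC spread 299 tags over 6 tag types and the OFT 359 over 9. The coding site 5 tag had 83 AVC tags and 91 OFT tags and none in either chamber. At the last site alone, with 74, 104, 25 and 0 tags, the log2 ratio to the chambers fell from 4.13 to 2.11 in the AVC (exact p = 0.00975) and from 4.60 to 2.80 in the OFT (exact p = 0.000784), so the size of the difference, but not the call, depended on the sites counted.

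*Klf6*, a gene linked to TGF-beta signalling and vascular repair, had an AVC level of 26.2 TPM (22.3 to 30.6) and an OFT level of 34.2 TPM (29.4 to 39.5). The atria held 9 tags of it (1.93 TPM) and the ventricles 8 (1.89 TPM), all at the last site. The AVC stood 13.7-fold above the chambers (exact p = 1.52e-05, adjusted p = 0.000165) and the OFT 17.9-fold above them (exact p = 2.59e-06, adjusted p = 3.87e-05). At the last site alone the log2 ratios were 2.74 in the AVC (exact p = 0.00146) and 3.29 in the OFT (exact p = 0.000156), against 3.77 and 4.16 over all sites. With 5 tags counted for each missing tag type, the log2 ratio was 2.30 in the AVC. Over all alternatives the lowest log2 ratio of *Klf6* in the OFT was 2.41.

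*Klf5*, known from smooth muscle and epithelia, stood near the limit of detection, with 8 AVC tags, 9 OFT tags and none in the other libraries. The AVC tags came from 1 coding site and the OFT tags from the last site. On the listed counts it was called higher in both regions (exact p = 0.0168 and adjusted p = 0.0423 in the AVC, exact p = 0.00780 and adjusted p = 0.0236 in the OFT). Its bounds were only at least 1.17-fold and at least 1.52-fold, and with TMM neither bound reaches 1-fold (log2 -0.72 and -0.25). Each bound counts only the site listed in that region. With 5 tags for each missing tag type counted in the test, *Klf5* was called in neither region.

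*Klf2*, the flow-responsive factor of the endocardium, reached 19.6 TPM in the AVC (16.2 to 23.4), with an OFT level of 7.59 TPM (5.42 to 10.3), an atrial level of 2.57 TPM and a ventricular level of 4.50 TPM. The AVC was 5.62-fold above the chambers (exact p = 0.00212, adjusted p = 0.00828). The exact p was 0.0542 with TMM and 0.0684 at the last site alone, where the AVC had 48 tags, the OFT 24 and each chamber 12. In the OFT it was 2.18-fold higher than in the chambers and did not pass the test (exact p = 0.184, adjusted p = 0.283). The OFT value and the test depend on 1 further tag type, described below.

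Of the repressors and *Klf15*, *Klf15* and *Klf9* were called higher in both valve-forming regions. *Klf15*, which controls metabolism in muscle and heart, came from its last site alone, with 37 AVC tags, 49 OFT tags, 6 from the ventricles and none from the atria. The AVC was 9.02-fold above the chambers (exact p = 0.00175, adjusted p = 0.00715) and the OFT 13.8-fold (exact p = 9.87e-05, adjusted p = 0.000745). *Klf9*, a hormone-responsive factor, had 81 AVC tags, 95 OFT tags, 26 from the atria and none from the ventricles. Its AVC level exceeded that of the chambers 4.56-fold (exact p = 0.00776, adjusted p = 0.0233) and its OFT level 6.17-fold (exact p = 0.00168, adjusted p = 0.00707). Against the atria alone the AVC ratio of *Klf9* was 1.26 on the log2 scale and did not pass (exact p = 0.126), while that of the OFT was 1.69 (exact p = 0.0376). At the last site alone *Klf9* passed in neither region (exact p = 0.0510 for the AVC and 0.0684 for the OFT). With 5 tags counted for each missing tag type *Klf9* passed in neither region too (log2 1.21 in the AVC). With TMM *Klf9* was not called in the AVC (log2 1.24, exact p = 0.126) and was called in the OFT (log2 1.77, exact p = 0.0295).

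*Klf3*, *Klf10* and *Klf13* did not pass the test between the valve-forming regions and the summed chambers. *Klf3*, a CtBP-binding repressor, had 36.7 TPM for the AVC, 43.9 for the OFT, 21.2 for the atria and 15.4 for the ventricles (log2 0.99 with exact p = 0.182 and log2 1.25 with exact p = 0.0945). Its sites did not move together. The last site had 171, 199, 43 and 27 tags in these libraries and gave log2 ratios of 1.84 in the AVC (exact p = 0.0181) and 2.26 in the OFT (exact p = 0.00354), while site 9, 3395 bases from the transcript end, had 29, 21, 49 and 29 tags. The last site held 76.7% and 86.1% of the *Klf3* tags in the AVC and OFT but 43.4% and 41.5% in the atria and ventricles, against 69.1% to 80.3% of the tags of all genes in these libraries.

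*Klf13*, a partner of GATA4 in the heart, had 23.0 TPM for the AVC (19.4 to 27.2), 21.5 for the OFT, 18.9 for the ventricles (15.02 to 23.6) and 4.71 for the atria (2.95 to 7.14). The atria stood apart from the other 3 libraries. Against the summed chambers the log2 ratio was 1.01 in the AVC (exact p = 0.184) and 0.90 in the OFT (exact p = 0.236). Against the atria alone it was 2.28 (exact p = 0.00491) and 2.18 (exact p = 0.00701), and against the ventricles alone 0.28 (exact p = 0.716) and 0.18 (exact p = 0.823). *Klf10*, induced by TGF-beta, had 4.94 TPM for the AVC (3.33 to 7.05), 11.8 for the OFT (9.02 to 15.1), 5.36 for the atria and 13.02 for the ventricles (9.81 to 16.9). It was 1.82-fold lower in the AVC than in the chambers and did not pass (exact p = 0.303), but was called lower with TMM (log2 -1.82, exact p = 0.0252). In the OFT its log2 ratio was 0.39 (exact p = 0.626) and turned to -0.47 with TMM.

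**Figure D2:**
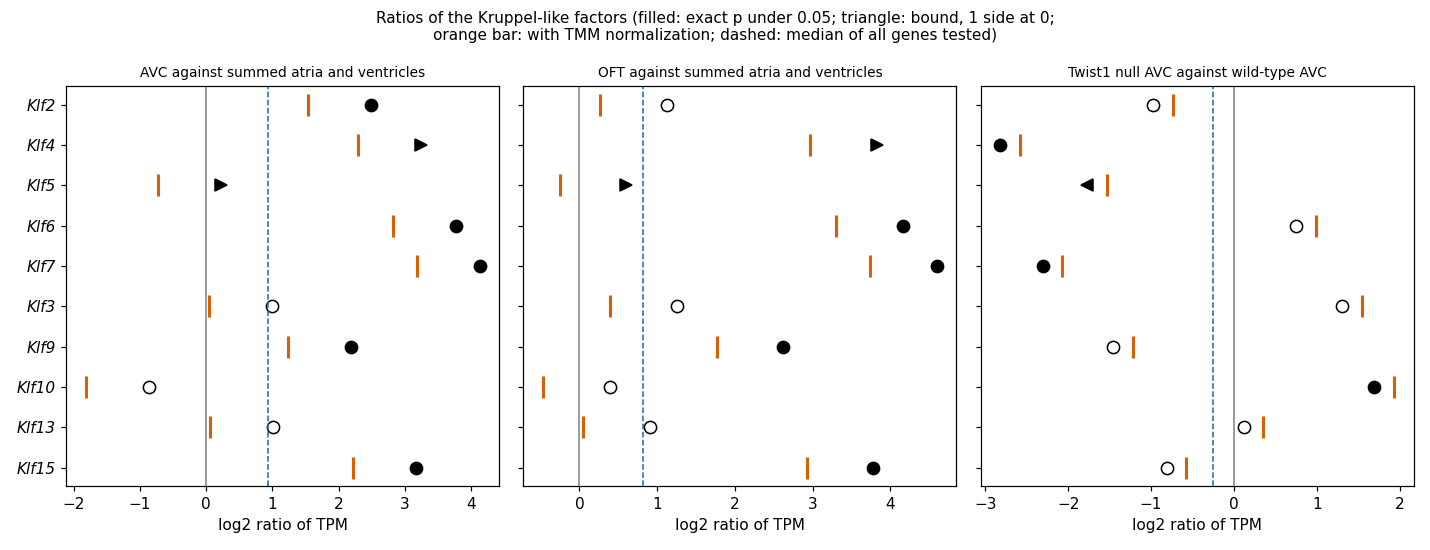
Log2 ratio of TPM (horizontal axis) for each of the 10 Krüppel-like factors in the AVC and OFT against the summed chambers and in the Twist1 null AVC against the wild-type AVC. Filled symbols passed the exact test at an unadjusted p under 0.05, and triangles are bounds for genes with no listed tag on 1 side. Orange bars are the values or bounds with TMM normalization, and dashed lines the median of all genes tested without TMM (0.93, 0.82 and -0.25). TMM moves all genes by the same amount, so the orange bars cannot be read against the dashed lines. Without TMM, Klf5 (by its bound) and Klf10 lie left of the dashed line in both chamber comparisons and the other members right of it. In the null Klf2, Klf4, Klf5, Klf7, Klf9 and Klf15 lie left of it without TMM.

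The second question was which members differ in the AVC without *Twist1*. Of the 10 members 1 was higher and 3 were lower in the null than in the wild-type AVC, where 11.9% of 12963 genes were called higher and 12.7% lower. With TMM, which raises all log2 ratios by 0.24, 2 were higher and 3 lower (14.9% and 9.36% of all genes). After adjustment over all genes 2 members, *Klf4* and *Klf7*, were called lower, where 3.93% of genes were called lower. The median log2 ratio was -0.90 over the members and -0.25 over all genes.

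*Klf4* was 7.06-fold lower in the null, at 4.55 TPM (59 tags, 3.46 to 5.86) against 32.1 TPM in the wild-type AVC (exact p = 0.000425, adjusted p = 0.0142). The site 7 tag had 23 tags in the null against 107 in the AVC, the site 9 tag 20 against 46, and the site 8 tag was not listed against 42. A tag at the coding site 6, at chr4:55528123-55528143, was listed in the null alone, with 16 tags. *Klf7* was 4.95-fold lower, at 9.94 TPM (129 tags, 8.30 to 11.8) against 49.2 TPM (exact p = 0.00275, adjusted p = 0.0352). Its site 5 tag had 20 tags in the null against 83 in the AVC and its last-site tag 53 against 74. At the last site alone the log2 ratio was -2.29 for *Klf4* (exact p = 0.00730) and -1.57 for *Klf7* (exact p = 0.0480). At a dispersion of 0.4 neither passed (exact p = 0.0546 for *Klf4* and 0.107 for *Klf7*). *Klf5*, not listed in the null, was at least 3.42-fold lower (exact p = 0.00780, adjusted p = 0.0673) on 8 tags in the AVC. It was not called with 5 tags for each missing tag type.

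*Klf10* was the member called higher, 3.23-fold, at 15.95 TPM in the null (207 tags, 13.9 to 18.3) against 4.94 TPM in the AVC (exact p = 0.0342). It did not pass after adjustment (adjusted p = 0.162). *Klf3* was at 90.9 TPM in the null (1179 tags, 85.7 to 96.2) against 36.7 TPM (32.0 to 41.9), 2.48-fold higher, and did not pass the test (exact p = 0.0769), but was called with TMM (exact p = 0.0374). *Klf9* was 2.75-fold lower (4.85 against 13.3 TPM, exact p = 0.0636), *Klf2* 1.97-fold lower (9.94 against 19.6 TPM, exact p = 0.198) and *Klf15* 1.76-fold lower (3.47 against 6.09 TPM, exact p = 0.307), none past the threshold. *Klf13* was at 25.0 TPM against 23.0 TPM (exact p = 0.882). Of the cushion mesenchyme markers 4 of 9 were called lower in the null and none higher, where 12.7% of all genes were called lower. Of the erythroid markers 5 of 8 were called higher and none lower, where 11.9% of all genes were called higher. The part of these markers in the values of *Klf4* and *Klf7* was not tested.

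*Klf6* was not called over all sites, but its tags were spread differently over them. It was at 44.1 TPM in the null (572 tags, 40.5 to 47.8) against 26.2 TPM in the AVC, 1.68-fold higher (exact p = 0.308). The site 19 tag had 227 tags in the null against 37 in the AVC and the site 14 tag 123 against 8, while the last-site tag had 163 against 78. The last site held 28.5% of the *Klf6* tags in the null (exact binomial 95% interval 24.8 to 32.4), 49.1% in the AVC (41.1 to 57.1), 55.0% in the OFT and 100% in both chambers, against 67.5% and 70.5% of the tags of all genes in the null and the AVC. At the last site alone the log2 ratio of null to AVC was -0.03 (exact p = 0.972). Of the 19 inner tag types of the members listed in the AVC, 3 (15.8%) were also listed in a chamber, where over all genes 6832 of 17328 (39.4%) were. These shares were not matched for the level of the tag types or for the ratio of their genes between the libraries. The plots of the tag types by site show which sites carried the members' tags in each library.

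**Figure D3:**
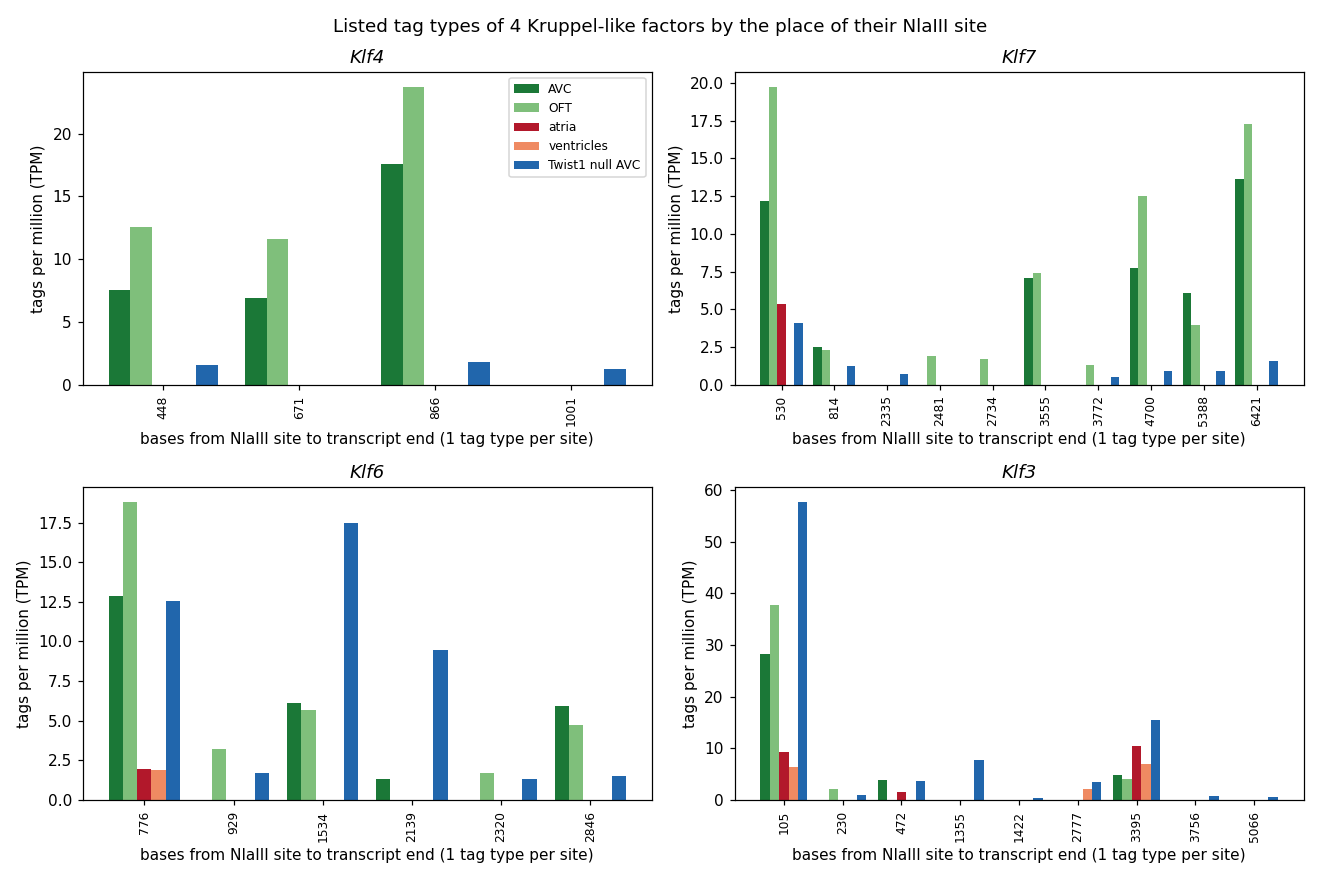
Level of each listed tag type (TPM, vertical axis) of Klf4, Klf7, Klf6 and Klf3, ordered along the horizontal axis by the bases from its NlaIII site to the transcript end, for the 5 libraries (colours). Klf4 has no bar in either chamber at any site, the chamber tags of Klf7 and Klf6 stand at the last site alone, and the null has its highest Klf6 bar at an inner site 1534 bases from the end.

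The AVC and the OFT were then compared with each other, and none of the 10 members was called by the exact test or by the likelihood ratio test of edgeR, where the exact test called 5.22% of 12541 genes higher and 7.35% lower. The largest differences were those of *Klf2*, 2.58-fold lower in the OFT (exact p = 0.0817, adjusted p = 0.509), and *Klf10*, 2.38-fold higher (exact p = 0.131, adjusted p = 0.707). The counting intervals of the AVC and the OFT do not overlap for *Klf2*, *Klf4*, *Klf7* and *Klf10*, but at a dispersion of 0.12 the test did not call these differences. These intervals cover counting error only, and the share of all genes whose intervals do not overlap was not counted. The ratios of the other 8 members lay between 1.07-fold lower (*Klf13*) and 1.53-fold higher (*Klf15*).

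Between the chambers 8 members could be tested, and 1 was higher and 2 were lower in the ventricles than in the atria, where 11.1% of 10705 genes were called higher and 9.03% lower. *Klf13* was 4.02-fold higher in the ventricles (18.9 against 4.71 TPM, exact p = 0.0160, adjusted p = 0.130). *Klf7* and *Klf9*, with 25 and 26 tags in the atria and none in the ventricles, were at least 4.53-fold and at least 4.71-fold lower there (exact p = 0.000181 and 0.000144, adjusted p = 0.0107 and 0.00942). *Klf10* was 2.43-fold higher in the ventricles (exact p = 0.126), and *Klf2* (exact p = 0.398), *Klf3* (exact p = 0.552) and *Klf6* (9 and 8 tags) were not called either. Erythroid markers summed to more in the atria than in the ventricles, as given above, and with haemoglobin tags left out of the library totals the same number of members, 3, was called.

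The *Klf2* level depends on 1 tag type that matched no transcript. It differs from the *Klf2* site 7 tag by T20G, with positions counted from 1 at the C of CATG.

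Klf2 site 7 of 8: CATGcgcgactgtggcaggtt
Unmatched neighbour: CATGcgcgactgtggcagggt

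The unmatched tag was read 43 times for the AVC, 84 times for the OFT and 159 times for the null and was not listed in the chambers, where the matched tag had 71, 16 and 62 tags, none in the atria and 7 in the ventricles. It was thus 0.606 times the matched tag in the AVC, 5.25 times in the OFT and 2.56 times in the null. Over all tag types with T at position 20 and at least 16 tags, this *Klf2* tag included, a T20G neighbour of at least 50% of the tag was listed for 1 of 5012 tag types in the AVC, 3 of 4642 in the OFT, 0 of 2500 in the atria, 0 of 2639 in the ventricles and 12 of 7233 in the null. A genome sequence was not used here, so its place of origin was not looked up. With it counted as *Klf2*, an alternative chosen after seeing the data, the levels were 26.7 TPM in the AVC (22.7 to 31.1), 23.5 TPM in the OFT (19.6 to 28.1) and 22.2 TPM in the null (19.7 to 24.9). The 3 intervals overlap. The tests were run with every unmatched 1-base neighbour added, which for *Klf2* also brought in a T20C tag type of 6 tags, listed in the AVC alone, and made 168 AVC tags. In that fit *Klf2* was called higher in the OFT than in the chambers (log2 2.75, exact p = 0.000714), and its log2 ratio moved from -1.37 to -0.23 in the OFT against the AVC (exact p = 0.766) and from -0.98 to -0.32 in the null against the AVC (exact p = 0.674).

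**Figure D4:**
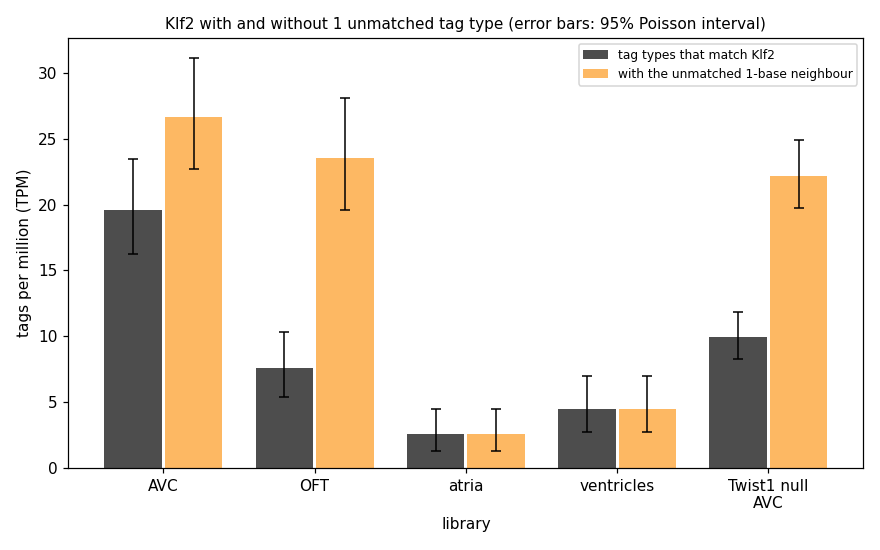
Level of Klf2 (TPM, vertical axis) in the 5 libraries (horizontal axis) from the tag types that match it (dark bars) and with the unmatched neighbour added (orange bars). Error bars are the 95% Poisson interval of the tag count; with the neighbour the AVC, OFT and null stand at 26.7, 23.5 and 22.2 TPM, and the chambers do not move.

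Of the remaining 7 *Klf* genes, 6 had tags. *Klf11*, a Sin3-binding repressor induced by TGF-beta, had 19.3 TPM for the AVC, 21.3 for the OFT, 2.84 for the ventricles and 36.7 for the null and was not listed in the atria. The AVC was 14.3-fold above the chambers (exact p = 2.24e-05) and the OFT 15.8-fold (exact p = 1.16e-05). *Klf16* was not listed in the chambers and was higher in both regions, by at least 3.22-fold (exact p = 0.000115) and at least 2.53-fold (exact p = 7.91e-07). These bounds count 1 tag type for the AVC and 3 for the OFT, so the chamber level put in differs. *Klf1*, the erythroid factor, had 39 AVC tags, 32 from the atria, 12 from the ventricles and 73 from the null. No OFT tag was listed, a level at least 6.76-fold lower than that of the AVC (exact p = 1.38e-05). *Klf12*, a CtBP-binding repressor, had 14 tags in the atria and 26 in the null and none elsewhere. *Klf8* and *Klf14* had at most 10 tags in any library, and no tag of *Klf17* was listed. In total 2 of the 6 tested were called higher and 2 lower in each chamber comparison (over all genes 43.4% and 8.12% for the AVC and 40.6% and 8.88% for the OFT), and *Klf12* alone was called in the null (at least 2.43-fold higher, exact p = 0.000836).

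The MEKK3-ERK5-MEF2 pathway and the CCM complex, which lies above it, act upstream of *Klf2* and *Klf4* in endothelium. Of 10 genes of this list 6 were called higher in the AVC than in the chambers and 5 in the OFT, and none lower, where 43.4% and 40.6% of all genes were called higher. The median log2 ratios were 2.12 and 1.95, against 0.93 and 0.82 over all genes. With TMM the counts were 5 higher and 1 lower in each, where 25.6% and 26.2% of all genes were called higher and 17.5% and 17.7% lower. *Mef2d*, a transcription factor under ERK5, had 78.3 TPM for the AVC and 91.1 for the OFT against 2.57 and 2.37 in the atria and ventricles (31.7-fold and 36.8-fold, exact p = 2.03e-08 and 5.31e-09). *Map3k3*, which encodes MEKK3, had 21.4 TPM for the AVC and 18.2 TPM for the OFT and was not listed in the chambers. The bounds were at least 9.51-fold (exact p = 4.74e-10) and at least 16.2-fold (exact p = 2.94e-09). Each bound counts only the tag types listed in that region, so the chamber level put in differs between them. In the null *Map3k3* was the 1 gene of the list called, at 1.62 TPM, 13.2-fold lower than in the AVC (exact p = 1.76e-05, adjusted p = 0.00207).

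Among 10 endothelial genes known to respond to *Klf2* or *Klf4*, 6 were called higher in the AVC than in the chambers and 4 of 9 tested in the OFT, and none lower. These shares stand beside 43.4% and 40.6% of all genes, and that of the OFT is near the share over all genes. With TMM the AVC had 3 higher and 2 lower, where 25.6% of all genes were called higher and 17.5% lower. The OFT then had 2 higher and 1 lower, where 26.2% of all genes were called higher and 17.7% lower. *Edn1*, which encodes endothelin-1, had 37.7 TPM for the AVC and 46.3 for the OFT against 1.29 and 4.97 in the atria and ventricles (12.4-fold and 15.3-fold, exact p = 1.57e-05 and 3.42e-06). *Wnt9b*, a Wnt ligand of the endocardium, was listed in the AVC (8.07 TPM) and the null (0.539 TPM) and in no other library. It was 14.95-fold lower in the null than in the AVC (exact p = 5.03e-05, adjusted p = 0.00351) and at least 8.50-fold lower in the OFT than in the AVC (exact p = 3.37e-06). *Thbd*, which encodes thrombomodulin, was 5.20-fold higher in the null (73.6 against 14.2 TPM, exact p = 0.00204, adjusted p = 0.0289). The list thus held 1 gene called higher and 1 called lower in the null.

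The genes whose profile over the 5 libraries lay nearest to that of *Klf4*, by Euclidean distance of centred log2(TPM + 1) among 3853 genes, were *Pigt* (0.321), *Pigh* (0.516) and *Rfwd3* (0.560). None of them was listed in the chambers either, which follows from choosing them by their levels in these same libraries. Those nearest to *Klf2* were *Cmtm4* (0.353), *Pcif1* (0.354) and *Hapln1* (0.425), the last of which encodes a link protein of the cushion matrix and ranged from 195 TPM in the atria to 1045 TPM in the AVC.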

How the data were processed

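Tag-seq was measured in 5 libraries. Per the labels the RNA came from pooled tissue, and the submitters' processing notes name the build mm9. The authors kept the first 21 bases of filtered reads and tag types with more than 5 tags, and the deposited values are counts of each tag type (17 bases after CATG), not normalized. The files give no gene names, and the mapping that the authors made with DiscoverySpace was not used.

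Tags were matched in sense to 33363 RefSeq-linked GENCODE M21 transcripts (GRCm38) of 24303 genes. Every NlaIII site was used, with 20 adenines added at the transcript end, and the 308949 of 315529 virtual tags that belong to 1 gene were kept. Coordinates come from this matching. Tags were summed per gene, and TPM are tags per 1000000 deposited tags. Intervals of 95% cover counting error alone. Duplicates made by PCR are counted with the rest. Tags keep the strand.

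Libraries were compared with edgeR 4.0.16 (R 4.3.3), using its exact test in the two-sided form, with the dispersion of 0.12 and the threshold of 0.05 of the study's methods, library sizes equal to the deposited totals and Benjamini-Hochberg adjustment over all genes. Atria and ventricles were summed. Tables were made in Python 3.11.15 (pandas 2.3.3, numpy 2.4.6, scipy 1.17.1), and DESeq2 1.42.0 gave size factors. Where a gene had no listed tag on 1 side, 5 tags per library were put in for each tag type of the other side. The ratio is then given as a bound, which covers these tag types alone. In the other ratios a tag type that is not listed counts as 0. The exact p given with a bound is that of the listed counts, without these 5 tags. On simulated data the test recovered 79.0, 71.0 and 73.5% of 200 genes changed 4-fold and called 4.16, 3.97 and 4.32% of unchanged genes, for the AVC, OFT and null comparison in this order (12499, 12447 and 12962 genes). The simulated counts had the dispersion of 0.12 that the test assumes and no listing floor, and only genes above a minimum of expected tags were changed. These shares therefore check the procedure and do not measure its error on the real libraries.

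All 10 members and the other *Klf* genes are named. From each further list up to 2 genes a direction and comparison, those with the smallest exact p, could be named, and for *Klf4* and *Klf2* the 3 genes with the nearest profile among those of at least 10 TPM in 1 library and an SD of at least 1. Members and lists were chosen with earlier results of these data known. In all, 18 other settings chosen with the tests and 1 added after seeing the data were run.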

Additional observations from a re-analysis of the deposited data

Results flagged for a closer look

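The values here come from tags outside the main measurement that stood above the level in the libraries used as controls. Antisense tags of *Klf3* reached 10.4 TPM in the AVC and 8.92 TPM in the OFT, and antisense tags of *Klf6* 6.42 TPM in the AVC and 6.07 TPM in the OFT. In the OFT antisense tags of *Klf4* were at 5.32 TPM and those of *Klf7* at 10.3 TPM. No antisense tag of these 4 genes was listed in the atria or ventricles. In the null antisense tags were at 18.3 TPM for *Klf6* against 6.42 TPM in the AVC, at 3.39 TPM for *Klf7* against 0.988 TPM and at 4.08 TPM for *Klf13* against 0.988 TPM. The unmatched T20G neighbour of the *Klf2* site 7 tag was at 7.08 TPM in the AVC, 15.9 TPM in the OFT and 12.3 TPM in the null and was not listed in the chambers. No cause was tested for any of these values.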

How the results depend on the processing

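No paired analysis was possible because each group has 1 library, and no library could be left out of a group other than the atria or the ventricles from the summed control, with which 7 members were called in each chamber comparison. *Klf4*, *Klf6* and *Klf7* were called higher in the AVC and the OFT under all 19 alternatives. Of 803 ratios recomputed, 738 kept their direction and side of the threshold, 29 passed it newly, 27 no longer passed and 9 turned. At a dispersion of 0.4 the members called were 3 in the AVC and 1 in the null (*Klf5*, not *Klf4*, *Klf7* or *Klf10*). *Klf2*, *Klf5*, *Klf9* and *Klf15* were then lost in the AVC and *Klf9* in the OFT. At 0.05 the members called were 2 in the OFT against the AVC and 5 between the chambers. In the null 2 were called by adjusted p and 2 with 5 tags for each missing tag type. Of the OFT against the AVC 1 was called at the last site alone and 1 with thinned libraries, and between the chambers 1 of 3 with at least 50 tags. These log2 ratios turned: *Klf10* in the OFT against the chambers to -0.47 with TMM, -0.49 with DESeq2 size factors and -0.15 against the ventricles alone; *Klf6* in the null to -0.0316 and, in the OFT against the AVC, *Klf9* to -0.0571 and *Klf13* to 0.15, at the last site alone. *Klf13* also turned to 0.0259 there with 5 tags for each missing tag type. Without tags that have T after CATG, *Klf13* in the null was at -1.63 and *Klf3* in the OFT against the AVC at -0.85. The cause was not tested. Depth limits genes of few tags such as *Klf5*, and a tag type of 5 tags or fewer is not listed.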

Other observations

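Of 10 corepressor and coactivator partners of the KLFs, 6 were called higher in the AVC than in the chambers and 4 in the OFT, and none lower, where 43.4% and 40.6% of all genes were called higher. The OFT count is near the share over all genes. With TMM the AVC had 3 higher, where 25.6% of all genes were called higher and 17.5% lower. The OFT then had 3 higher and 2 lower, where 26.2% of all genes were called higher and 17.7% lower. *Hdac1*, a histone deacetylase, had 57.4 TPM for the AVC, 63.0 for the OFT and 26.7 for the null and was not listed in the chambers (at least 10.2-fold with exact p = 1.78e-13 and at least 14.01-fold with exact p = 1.50e-13). *Ctbp2*, a corepressor bound by *Klf3*, had 17.8 TPM for the AVC, 25.1 for the OFT and 22.2 for the null and was not listed in the chambers either (at least 15.8-fold and at least 11.1-fold, exact p = 1.93e-09 and 2.43e-10). For both genes each bound counts only the tag types listed in that region, so the chamber level put in differs between regions. *Ctbp1*, the paralog of *Ctbp2*, was the 1 partner called in the null, at 251 TPM against 63.9 TPM in the AVC, 3.93-fold higher (exact p = 0.00825, adjusted p = 0.0699).

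The SP factors bind the same GC-rich sites as the KLFs, and 6 of the 9 had tags. *Sp1* had 27.0 TPM for the AVC, 22.2 for the OFT, 5.92 for the ventricles and 34.5 for the null and was not listed in the atria. The AVC was 9.60-fold above the chambers (exact p = 8.69e-05) and the OFT 7.90-fold (exact p = 0.000377). *Sp4* was 5.14-fold lower in the OFT than in the chambers (1.14 TPM on 6 tags, exact p = 0.0140).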
